A study of Mus musculus with 6 samples.

Results

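Mitochondrial ribosomal protein genes were followed across 3 kinds of isolated mouse heart cells. Members were the genes of the array's annotation whose symbol begins with Mrpl or Mrps and a digit, taken from probe sets named to 1 gene only, with pseudogenes left out. Where a gene had several probe sets, the one with the highest mean over the 6 arrays was used. This gave 76 of the 18193 genes measured, 47 with Mrpl and 29 with Mrps symbols. By the subunit that holds the protein, 49 belong to the large subunit, including Mrps18a and Mrps30, and 26 to the small subunit. The remaining member, Mrps36, is now known as a component of the alpha-ketoglutarate dehydrogenase complex and not of the ribosome. Mrpl30 and Mrpl53 were named only on probe sets shared with another gene and were not members.

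The mitochondrial ribosome translates the few messenger RNAs of the mitochondrial genome, which encode core subunits of the respiratory chain and of ATP synthase. Its own proteins are encoded in the nucleus, made in the cytosol and imported. Some belong to families shared with bacterial ribosomes, while others are found only in mitochondria and coat the surface of the particle. Heart muscle contracts without pause on oxidative ATP production and is packed with mitochondria, and variants in several of these genes cause cardiomyopathy in humans.

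Total RNA was hybridised to 6 Affymetrix arrays, 2 per group, from C57BL/6J mice. The adult cardiomyocytes came from males at 8 weeks of age by Langendorff perfusion, in which the heart is perfused backwards through the aorta. The neonatal cardiomyocytes and the neonatal cardiac fibroblasts came from animals of both sexes at postnatal day 1, with a separation on Percoll, a density medium. The labels call the cells fresh, and also describe trypsin and collagenase for all of them and a plating step that parted fibroblasts from cardiomyocytes, with a mitochondrial dye used to look for remaining cardiomyocytes. Age, sex and isolation differ together between adult and neonatal cells and cannot be told apart. Nothing in the labels tells whether both arrays of a group stem from different preparations, and p-values cover the array-to-array spread alone, part of which may be technical.

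Values are log2 RMA values, in which 1 unit is a 2-fold difference, and array medians lay between 5.60 and 5.67. For replicate 1 of both neonatal groups, title and source name disagree on the cell type, and groups here follow the source names. The median of 8 cardiomyocyte markers was 14.03 and 14.04 on the adult and 13.81 and 13.38 on the neonatal cardiomyocyte arrays, against 7.47 and 10.37 on the fibroblast arrays. That of 8 fibroblast markers was 7.77 and 9.58 in adult and 10.28 and 8.93 in neonatal cardiomyocytes, against 12.58 and 11.86 in fibroblasts. Markers thus ran with the source names, and fibroblast replicate 2 had more cardiomyocyte signal than replicate 1. Leukocyte markers (10 genes) had medians of 6.82 and 8.51 in adult cardiomyocytes, 7.48 and 5.73 in neonatal cardiomyocytes, and 12.10 and 9.39 in fibroblasts. The fibroblast arrays therefore carried leukocyte transcripts too, most of all replicate 1.

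As a whole, the mitochondrial ribosomal protein genes were highest in adult cardiomyocytes and lowest in fibroblasts. Over the 76 genes the array medians were 10.21 and 10.29 in adult cardiomyocytes, 9.79 and 9.96 in neonatal cardiomyocytes, and 9.20 and 9.65 in fibroblasts. The 3 groups did not overlap in this median. In bulk samples such as these, fewer cells of a type and less RNA per cell cannot be told apart. The arrays of a group were not equally close for these genes. Fibroblast replicate 2 exceeded replicate 1 in 71 of the 76 members, with a median gap of 0.49, against 53.8% of all genes and a gap of 0.03. In adult and in neonatal cardiomyocytes replicate 2 was the higher in 41 and 39 of 76. The higher fibroblast array is the one with the higher cardiomyocyte markers and the lower leukocyte markers; the part of either in the levels was not tested.

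**Figure D1:**
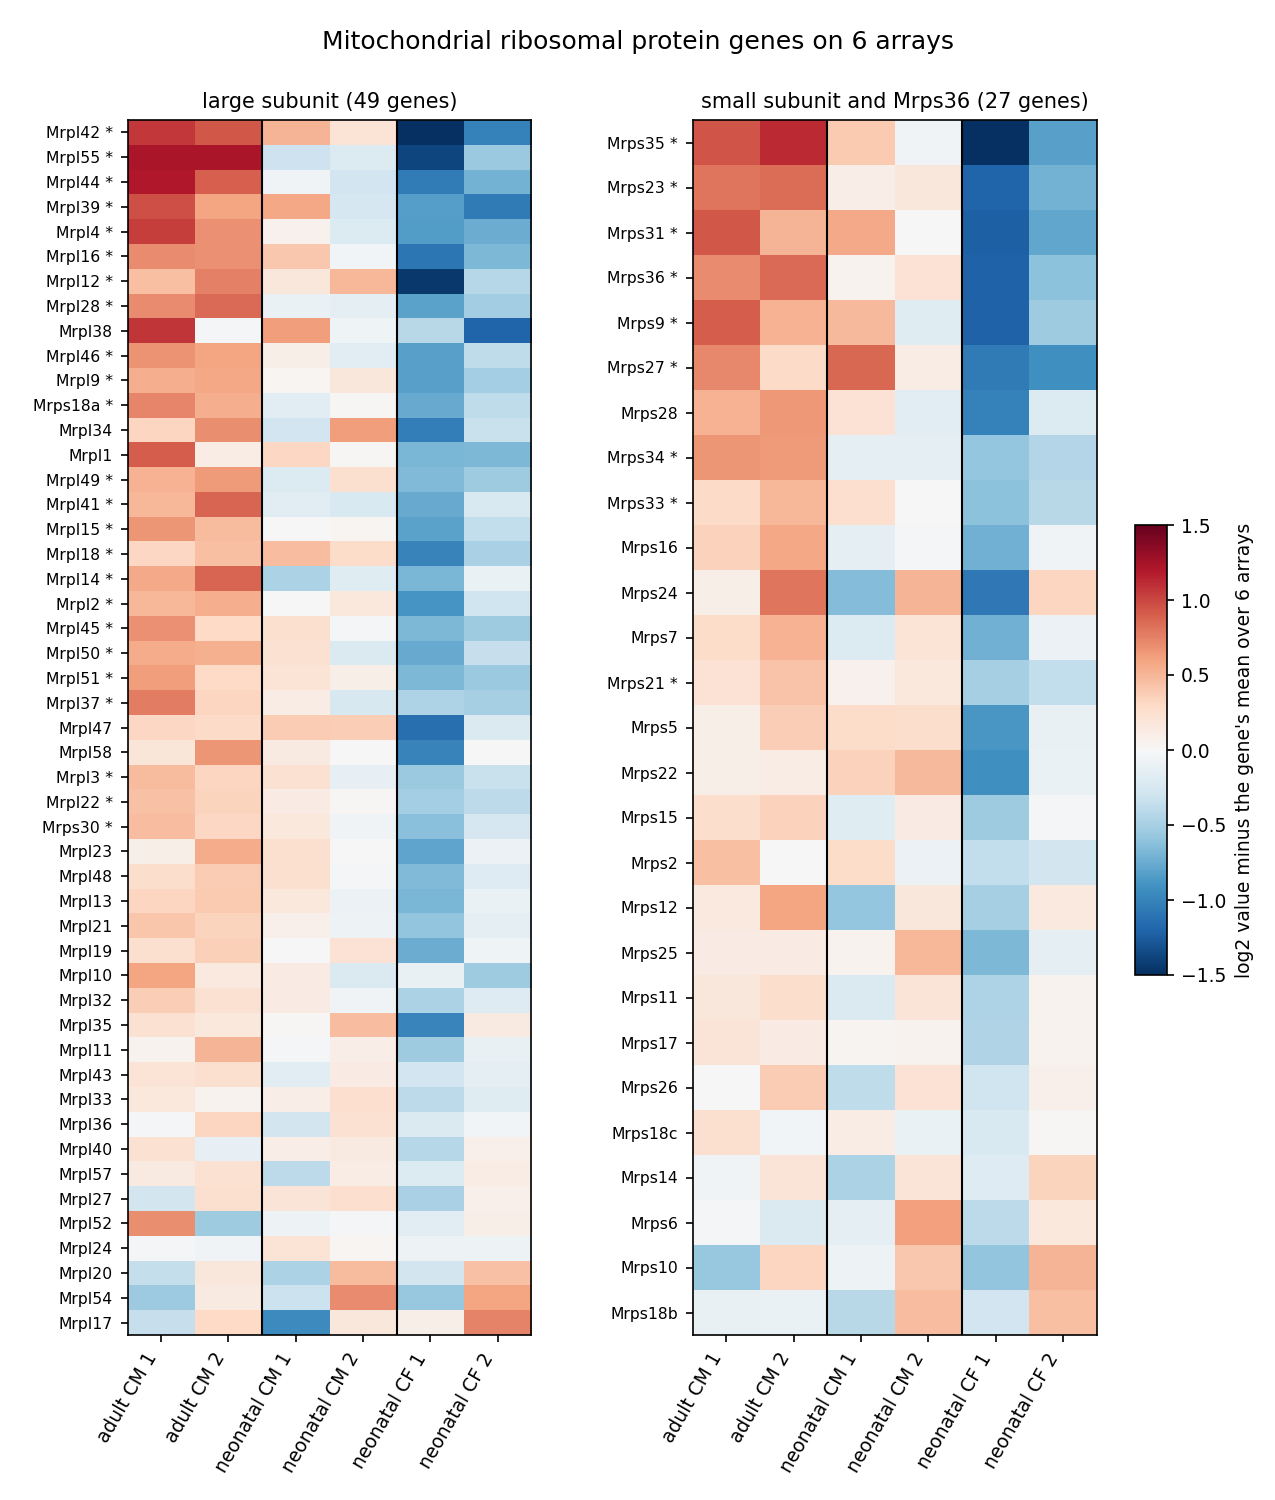
Each row is 1 of the 76 genes and each column 1 array (CM, cardiomyocytes; CF, cardiac fibroblasts; 1 and 2, replicates), coloured by the log2 RMA value minus that gene's mean over the 6 arrays, with large-subunit genes on the left and small-subunit genes and Mrps36 on the right. Rows are ordered by the adult cardiomyocyte minus fibroblast difference, and an asterisk marks the 33 genes that passed the test in that comparison; the fibroblast columns are blue in most rows, more deeply so for replicate 1.

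Promoter sequence was not used to choose the members and is described next. RefSeq promoters of 300 bases, 250 before to 50 after each annotated start on GRCm38.p6, were matched for 67 of the 76 members, 73 promoters in all. They were searched on both strands for binding motifs of factors known as regulators of nuclear genes for mitochondria. The ETS motif CCGGAAG, the core bound by GABP (also called NRF-2), stood in 34.2% of member promoters, against 12.9% of the 18036 promoters of the other measured genes and 8.86% of all 32851 in the table. The NRF1 motif, searched as CGCATGCG, which reads the same on both strands, stood in 9.59% of member promoters, against 2.85% of other measured genes and 1.87% of all. The YY1 motif AAGATGGCG stood in 11.0%, against 2.06% and 1.40%. An ERR motif, TCAAGGTCA, was in 0 of the 73, against 0.344% of other measured genes, and the E-box CACGTG was in 9.59%, against 8.72%. The E-box order depends on the unit, since 3 promoters of Mrpl2 hold one: by gene it was in 5 of 67 members, or 7.46%, against 10.2% of other measured genes. By gene the ETS shares were 37.3% and 14.9%, the NRF1 shares 10.4% and 3.23%, and the YY1 shares 11.9% and 2.48%. Median GC content was 58.7% in member promoters and 58.3% in those of other measured genes. Among promoters of 53.0 to 64.7% GC alone, the ETS shares were 36.8% and 16.3%, the NRF1 shares 10.5% and 3.53%, and the YY1 shares 10.5% and 2.66%. These are matches of letters and not measured binding, and matches of different motifs did not overlap each other. Only the exact letters given were searched, so sites that vary from them were not counted.

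**Figure D2:**
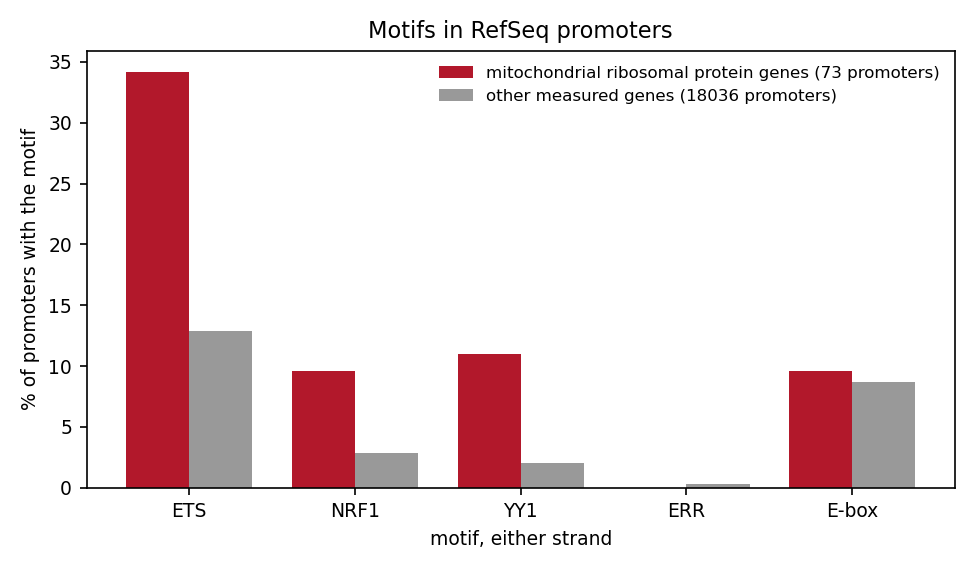
Bars give the percent of promoters that hold each motif on either strand, in the 73 promoters of mitochondrial ribosomal protein genes (red) and in the 18036 promoters of the other measured genes (grey). The ETS, NRF1 and YY1 bars are higher for the mitochondrial ribosomal protein genes, and the E-box bars stand at 9.59% and 8.72%, with 3 promoters of Mrpl2 counted apart.

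The windows below run from 60 bases before the annotated start to 39 after it, 5′ to 3′ on the gene's strand, with ETS, NRF1 and YY1 matches in capitals. Mrps18a and Mrps27 are shown because each holds both an ETS and a YY1 match, and Mrpl42 because it had the widest difference between cardiomyocytes and fibroblasts and holds YY1.
Mrps18a, chr17:46110944-46111043, plus strand: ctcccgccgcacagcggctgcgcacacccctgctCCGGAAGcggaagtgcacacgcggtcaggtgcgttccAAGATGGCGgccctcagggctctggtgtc
Mrps27, chr13:99344726-99344825, plus strand: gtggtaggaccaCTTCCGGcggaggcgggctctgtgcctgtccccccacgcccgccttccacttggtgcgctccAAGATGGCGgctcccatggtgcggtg
Mrpl42, chr10:95501910-95502009, minus strand: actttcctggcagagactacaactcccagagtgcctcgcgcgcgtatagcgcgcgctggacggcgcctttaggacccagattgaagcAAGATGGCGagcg
The YY1 matches contain the letters ATG, and 6 of the 8 in member promoters lay at or after the annotated start, with first bases between 11 and 36 when the start is counted as 0. Of the 371 promoters of other measured genes with a YY1 match, 57.4% had one at or after the start.

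ETS matches sit close to the start in Mrps23, which passed the test in adult cardiomyocytes, and in the human cardiomyopathy genes Mrpl3 and Mrps22.
Mrps23, chr11:88204328-88204427, plus strand: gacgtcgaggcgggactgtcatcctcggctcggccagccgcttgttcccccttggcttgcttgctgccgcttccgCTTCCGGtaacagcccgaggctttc
Mrpl3, chr9:105053208-105053307, plus strand: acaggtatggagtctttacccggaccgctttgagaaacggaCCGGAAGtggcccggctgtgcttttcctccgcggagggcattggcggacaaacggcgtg
Mrps22, chr9:98601640-98601739, minus strand: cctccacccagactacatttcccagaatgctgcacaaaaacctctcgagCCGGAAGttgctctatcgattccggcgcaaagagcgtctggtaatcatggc
The NRF1 match is shown in 2 genes, Mrpl9 and Mrpl17, whose differences between adult cardiomyocytes and fibroblasts had opposite signs. Mrpl44, with one of the widest differences, is shown as a window with no match to the exact letters searched. It holds cgcacgcg, which differs from the searched NRF1 motif only in a C for the T and was not counted.
Mrpl9, chr3:94443276-94443375, plus strand: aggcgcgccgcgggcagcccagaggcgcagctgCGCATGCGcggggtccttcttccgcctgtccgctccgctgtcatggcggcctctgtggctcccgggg
Mrpl17, chr7:105811048-105811147, minus strand: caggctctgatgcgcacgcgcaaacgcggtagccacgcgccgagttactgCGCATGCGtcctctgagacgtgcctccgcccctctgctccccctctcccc
Mrpl44, chr1:79775958-79776057, plus strand: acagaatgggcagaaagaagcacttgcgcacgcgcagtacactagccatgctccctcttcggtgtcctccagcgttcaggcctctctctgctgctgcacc
Differences between the groups were set beside these matches, with no test. Between adult cardiomyocytes and fibroblasts, the median log2 difference was 0.75 over 25 members with an ETS match and 0.90 over 42 without. It was 0.69 over 7 members with NRF1 and 0.82 over 60 without, and 0.93 over 8 with YY1 and 0.80 over 59 without. Members that hold only a variant of a motif count as without, among them Mrpl44 and Mrpl45 with cgcacgcg. The order of such medians was not the same in every comparison. For adult against neonatal cardiomyocytes they were 0.28 with and 0.36 without ETS, 0.37 and 0.32 for NRF1, and 0.37 and 0.33 for YY1. For neonatal cardiomyocytes against fibroblasts they were 0.50 and 0.55 for ETS, 0.36 and 0.52 for NRF1, and 0.46 and 0.52 for YY1.

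Some members have a second gene close by on the other strand. An annotated start pointing the other way lay within 300 bases upstream of 20 of the 67 members with a matched promoter. The share among other genes was not counted, so the 20 cannot be read as a trait of the family. Mrpl46 and Mrps11 form such a pair with each other, with 41 bases between their starts. The window of Mrps11 is shown because it holds both starts.
Mrps11, chr7:78783071-78783170, plus strand: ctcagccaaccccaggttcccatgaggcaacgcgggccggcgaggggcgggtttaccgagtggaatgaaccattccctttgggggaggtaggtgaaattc
Both genes were measured. Mrpl46 measured 9.87 and 9.78 in adult cardiomyocytes, 9.28 and 9.02 in neonatal cardiomyocytes, and 8.38 and 8.81 in fibroblasts. Mrps11 measured 8.56 and 8.65, 8.17 and 8.58, and 7.92 and 8.44 on the same arrays. Mrpl46 passed the test between adult cardiomyocytes and fibroblasts (log2 difference 1.23 ± 0.22 SE, adjusted p = 0.0217) and Mrps11 did not (0.43 ± 0.26 SE, adjusted p = 0.284); the difference between the genes was not tested. Mrps12 shares its region with Sars2, the mitochondrial seryl-tRNA synthetase, 146 bases apart, and Mrpl43 with Twnk, the mitochondrial DNA helicase, 115 bases apart.

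Between adult cardiomyocytes and neonatal fibroblasts, 33 of the 76 genes rose and 0 fell (limma, adjusted p under 0.05 over all 18193 genes). Cell type, age, sex and isolation all differ in this comparison and cannot be told apart, and the fibroblasts are neonatal throughout. The 33 are 43.4% of the members, against a background of 10.1% of all genes called higher and 11.0% called lower, or 21.0% in either direction. At an unadjusted p under 0.05, 46 were higher and 0 lower, against 17.7% and 19.3% of all genes. The adult mean was higher in 70 of 76, against 56.0% of all genes. The median log2 difference was 0.83, a 1.78-fold difference, against 0.09 over all genes, and single genes lay between −0.43 and 2.34. The 2 adult arrays stood above both fibroblast arrays for 62 members and the groups overlapped for 14, while over all genes the arrays stood apart upwards for 37.8% and downwards for 30.2%.

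**Figure D3:**
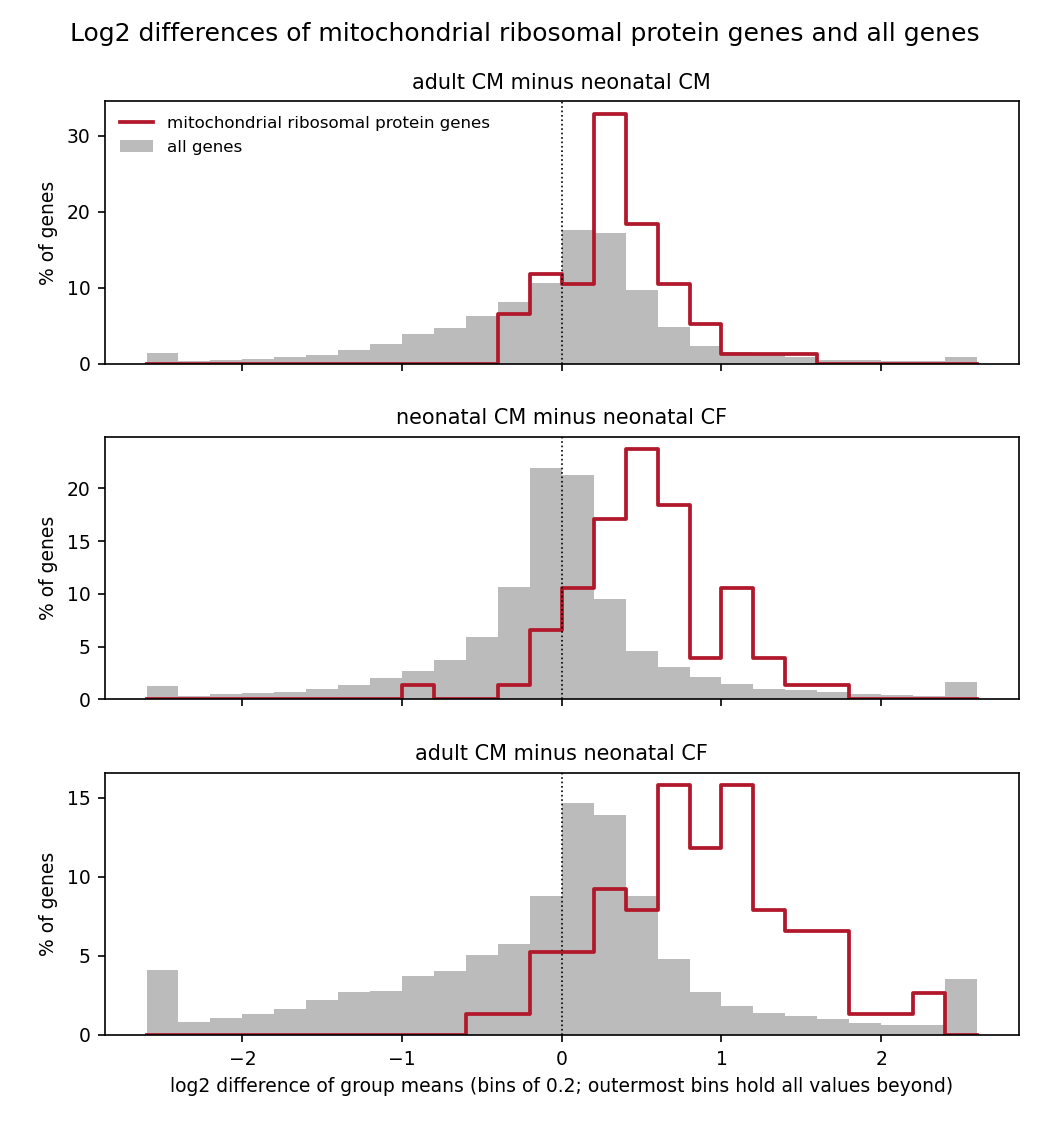
Each panel gives, for 1 comparison (CM, cardiomyocytes; CF, cardiac fibroblasts), the percent of genes (vertical axis) by log2 difference of group means (horizontal axis, bins of 0.2, the outermost holding all values beyond), for the 76 mitochondrial ribosomal protein genes (red line) and all 18193 genes (grey). Most of the red line lies to the right of 0 in each panel, with medians of 0.33, 0.52 and 0.83 from top to bottom, against 0.09, −0.02 and 0.09 for all genes.

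In the large subunit, 24 of 49 rose between adult cardiomyocytes and fibroblasts, with a median difference of 0.97. Of its 29 members of bacterial families, 12 rose: Mrpl2, Mrpl3, Mrpl4, Mrpl9, Mrpl12, Mrpl14, Mrpl15, Mrpl16, Mrpl18, Mrpl22, Mrpl28 and Mrpl55. Mrpl55, the mitochondrial form of bacterial L31, measured 10.75 and 10.75 in adult cardiomyocytes, 9.22 and 9.33 in neonatal cardiomyocytes, and 8.15 and 8.97 in fibroblasts. The difference was 2.19 ± 0.30 SE (4.56-fold, adjusted p = 0.0127), and no group overlapped another. Mrpl4, of the L4 family that lines the exit tunnel, measured 11.22 and 10.87 in adult cardiomyocytes against 9.35 and 9.44 in fibroblasts (1.66 ± 0.21 SE, adjusted p = 0.0108). Mrpl28 measured 10.78 and 10.92 against 9.27 and 9.55 in the same groups (1.44 ± 0.18 SE, adjusted p = 0.0111). Both adult arrays stood well above both fibroblast arrays in each of these genes. Mrpl9, of the L9 family, measured 10.25 and 10.28 in adult cardiomyocytes against 8.89 and 9.19 in fibroblasts (1.22 ± 0.19 SE, adjusted p = 0.0153).

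The stalk of the large subunit, where translation factors dock, is built on Mrpl10 with copies of Mrpl12. Mrpl12 measured 11.14 and 11.45 in adult cardiomyocytes, 10.86 and 11.18 in neonatal cardiomyocytes, and 9.25 and 10.27 in fibroblasts. It rose by 1.54 ± 0.38 SE against fibroblasts (2.91-fold, adjusted p = 0.0458), and the fibroblast arrays lay more than 1 unit apart. Mrpl10 measured 9.51 and 9.08, 9.04 and 8.70, and 8.81 and 8.39 on the same arrays. Its difference of 0.69 ± 0.27 SE did not pass (adjusted p = 0.129), but did with the replicate number as a block (adjusted p = 0.0415).

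Of the 19 large-subunit members found only in mitochondria, 11 rose (Mrpl37, Mrpl39, Mrpl41, Mrpl42, Mrpl44, Mrpl45, Mrpl46, Mrpl49, Mrpl50, Mrpl51 and Mrps30), with a median difference of 1.08 over the 19. Mrps30 passed narrowly (adjusted p = 0.0492) and missed the threshold with the replicate number as a block (adjusted p = 0.0587). Mrpl42 had the widest difference of the 76. It measured 12.95 and 12.82 in adult cardiomyocytes, 12.40 and 12.09 in neonatal cardiomyocytes, and 10.21 and 10.88 in fibroblasts, a difference of 2.34 ± 0.28 SE between adult cardiomyocytes and fibroblasts (5.06-fold, adjusted p = 0.00978). All 3 groups stood apart. Mrpl44, a relative of RNase III, measured 10.86 and 10.54 in adult cardiomyocytes, 9.60 and 9.36 in neonatal cardiomyocytes, and 8.60 and 8.94 in fibroblasts. Its difference between adult cardiomyocytes and fibroblasts was 1.93 ± 0.22 SE (3.81-fold, adjusted p = 0.00922), the lowest adjusted p among the members.

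Among the 26 small-subunit members 8 rose, with a median difference of 0.66. The 9 found only in mitochondria held 6 of them (Mrps23, Mrps27, Mrps31, Mrps33, Mrps34 and Mrps35; median 1.16), and the 15 of bacterial families held 2 (Mrps9 and Mrps21; median 0.58). Whether these 2 kinds differ was not tested. Mrps35 measured 10.39 and 10.57 in adult cardiomyocytes, 9.84 and 9.40 in neonatal cardiomyocytes, and 7.85 and 8.63 in fibroblasts (2.24 ± 0.32 SE between adult cardiomyocytes and fibroblasts, 4.73-fold, adjusted p = 0.0139). Mrps23 measured 10.60 and 10.64, 9.90 and 9.97, and 8.59 and 9.09 on the same arrays (1.78 ± 0.22 SE, adjusted p = 0.0104). The groups formed 3 separate steps in both genes. Mrps34 averaged 11.09 ± 0.01 in adult cardiomyocytes, 10.30 ± 0.00 in neonatal cardiomyocytes, and 9.93 ± 0.11 in fibroblasts (SD, n = 2 each). It rose by 1.16 ± 0.16 SE between adult cardiomyocytes and fibroblasts (limma, adjusted p = 0.0131), with the arrays of each group close together. Mrps31 rose by 1.72 ± 0.30 SE (adjusted p = 0.0207), and Mrps27, a protein with pentatricopeptide repeats that bind RNA, by 1.48 ± 0.32 SE (adjusted p = 0.0322).

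The 3 paralogs of bacterial S18 occupy different sites of the ribosome, and 1 of them rose. Mrps18a, which sits in the large subunit, measured 10.39 and 10.21 in adult cardiomyocytes, 9.50 and 9.67 in neonatal cardiomyocytes, and 8.90 and 9.28 in fibroblasts. It rose by 1.21 ± 0.21 SE between adult cardiomyocytes and fibroblasts (adjusted p = 0.0200). Mrps18b and Mrps18c, both in the small subunit, had differences of −0.19 ± 0.39 SE (adjusted p = 0.748) and 0.20 ± 0.21 SE (adjusted p = 0.509), with overlapping arrays. Differences between the paralogs were not tested. Mrps36, the dehydrogenase component, measured 11.17 and 11.32 in adult cardiomyocytes, 10.52 and 10.68 in neonatal cardiomyocytes, and 9.25 and 9.85 in fibroblasts, and rose by 1.69 ± 0.25 SE (adjusted p = 0.0146).

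At the other end, 6 members had a lower mean in adult cardiomyocytes than in fibroblasts, and their arrays overlapped. Mrpl17, of the L17 family, measured 9.65 and 10.29 in adult cardiomyocytes, 9.04 and 10.17 in neonatal cardiomyocytes, and 10.08 and 10.73 in fibroblasts (−0.43 ± 0.48 SE, adjusted p = 0.541). Replicate 2 was above replicate 1 in every group. Its 2 other probe sets, with lower means, had the opposite sign in this comparison. Mrpl54, Mrps18b, Mrpl20, Mrps10 and Mrps6 had differences between −0.21 and 0.00, all with adjusted p of 0.748 or more. Of the 42 members with several probe sets, 13 had a further probe set of opposite sign in this comparison, among them the called Mrpl15 and Mrps21. In Mrpl52 the probe set used gave 0.12, while 2 others gave −1.38 and −1.22, with both adult arrays below both fibroblast arrays. A probe set of opposite sign was found for 14 of the 42 in adult against neonatal cardiomyocytes. In neonatal cardiomyocytes against fibroblasts it was found for 15.

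Of 4 genes whose variants cause cardiomyopathy in humans, 2 rose between adult cardiomyocytes and fibroblasts, against 43.4% of all members and 10.1% of all genes. Mrpl44 is given above. Mrpl3, of the L3 family near the peptidyl transferase centre, measured 10.46 and 10.31 in adult cardiomyocytes, 10.22 and 9.86 in neonatal cardiomyocytes, and 9.43 and 9.65 in fibroblasts. It rose by 0.85 ± 0.21 SE (adjusted p = 0.0460), which missed the threshold with the replicate number as a block (adjusted p = 0.0506). Mrps22 measured 9.16 and 9.18 in adult cardiomyocytes, 9.42 and 9.56 in neonatal cardiomyocytes, and 8.15 and 8.97 in fibroblasts. Here the neonatal cardiomyocytes were highest, with 0.61 ± 0.30 SE between adult cardiomyocytes and fibroblasts (adjusted p = 0.209). Mrps14, of the S14 family, measured 10.55 and 10.78, 10.11 and 10.78, and 10.40 and 10.93 on the same arrays, with full overlap.

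**Figure D4:**
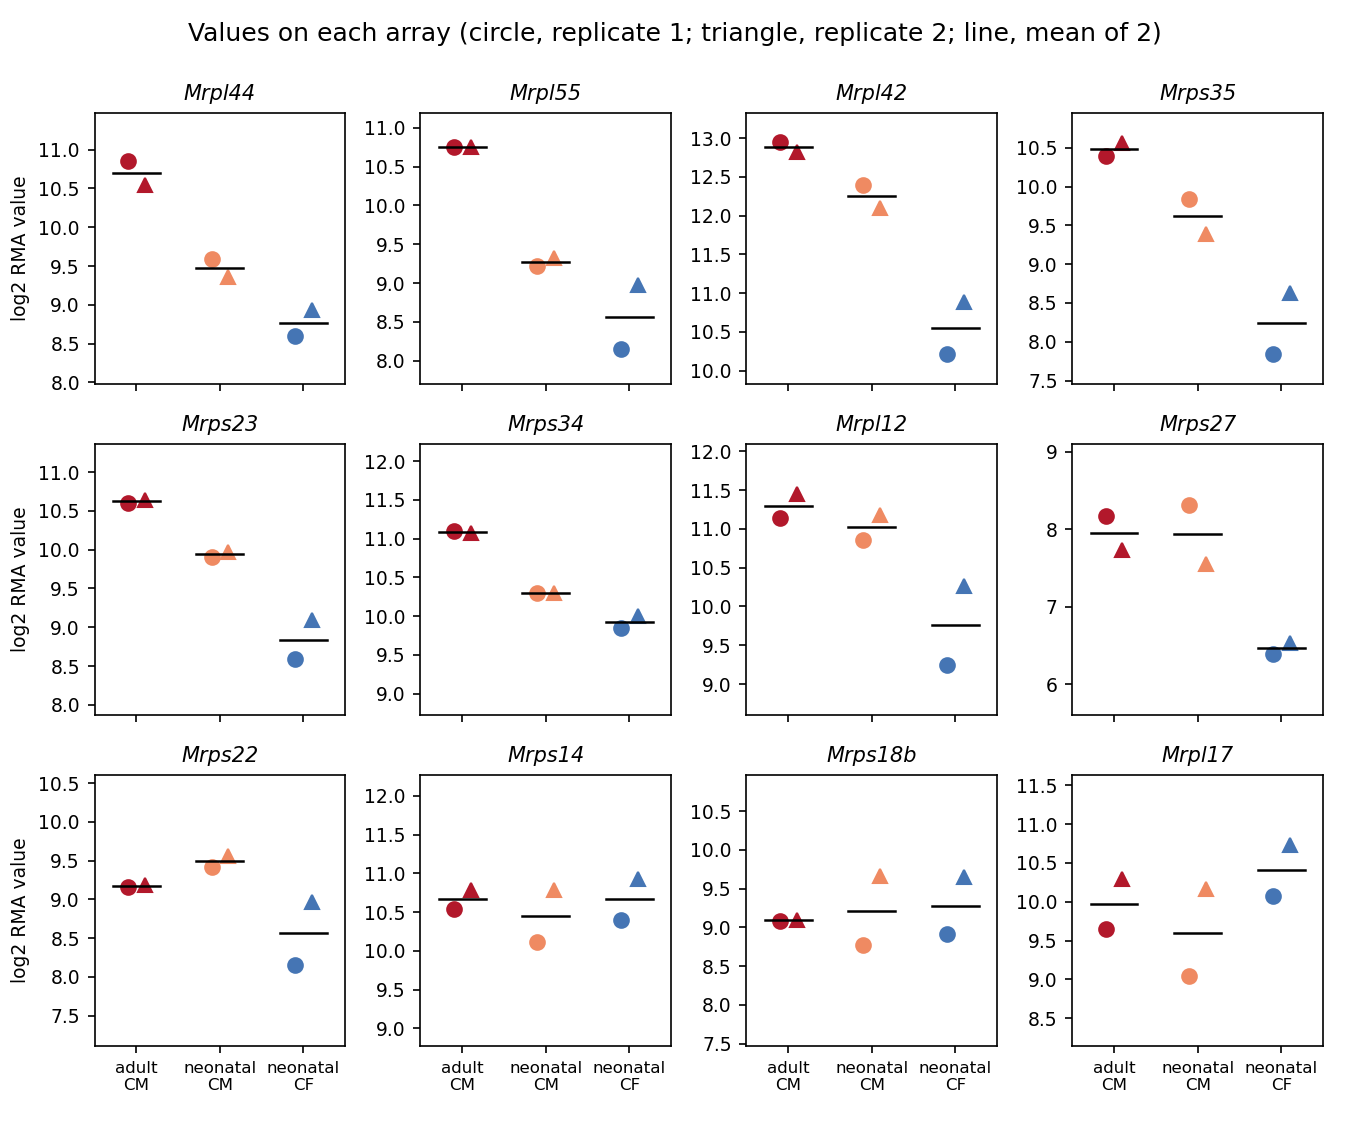
Each panel shows 1 gene's log2 RMA value on every array (circles, replicate 1; triangles, replicate 2) for adult cardiomyocytes (CM), neonatal CM and neonatal cardiac fibroblasts (CF), with a line at the mean of 2; the vertical axes span equal ranges but start at different values. Mrpl44, Mrpl55, Mrpl42, Mrps35, Mrps23 and Mrps34 fall in 3 steps, Mrpl12 and Mrps27 overlap between adult and neonatal CM, Mrps22 is highest in neonatal CM, and Mrps14, Mrps18b and Mrpl17 overlap between groups.

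These calls rest on few arrays. The calls did not hold without adult replicate 1 or adult replicate 2, and few or no calls over all genes remained. Such a fit leaves 1 adult array and takes its spread from the other groups. Without fibroblast replicate 1, 5 passed and the median was 0.58, and 5.95% of all genes passed in either direction. Without fibroblast replicate 2, 21 passed, 19 of them among the 33, and the median was 1.07, while 10.7% of all genes passed. With the neonatal replicate 1 arrays grouped by title, 0 members and 0.753% of all genes passed, and the members' median was 0.48. With both arrays left out, 0 members and 3.94% of all genes passed, and it was 0.58.

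Between neonatal cardiomyocytes and neonatal fibroblasts, which shared age, strain and the Percoll label, no member passed the test, against a background of 0.676% of all genes called higher and 0.143% called lower, or 0.819% in either direction. At an unadjusted p under 0.05, limma placed 28 members higher and 0 lower, against 8.95% and 7.31% of all genes. The 28 became 12 without fibroblast replicate 1 (6.23% of all genes higher), 14 without neonatal cardiomyocyte replicate 1 (6.92%) and 18, with 1 lower, without neonatal cardiomyocyte replicate 2 (9.70%). The cardiomyocyte mean was higher in 69 of 76, against 47.4% of all genes, and both cardiomyocyte arrays stood above both fibroblast arrays for 52 and below both for 0, against 22.3% and 23.2%. The median difference was 0.52, or 1.43-fold, against −0.02 over all genes. It was 0.30 without fibroblast replicate 1, 0.72 without fibroblast replicate 2, 0.29 with both neonatal replicate 1 arrays left out and −0.21 with those arrays grouped by title.

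The widest differences were in Mrpl42 (1.70 ± 0.28 SE, adjusted p = 0.0696), Mrps27 (1.47 ± 0.32 SE, adjusted p = 0.107) and Mrps35 (1.38 ± 0.32 SE, adjusted p = 0.127). Mrpl42 passed without fibroblast replicate 2 (adjusted p = 0.0484). Mrps27 measured 8.32 and 7.56 in neonatal cardiomyocytes against 6.39 and 6.53 in fibroblasts, so that its 2 groups stood apart although the cardiomyocyte arrays were spread. Mrps31, Mrpl12 and Mrpl18 followed at 1.29, 1.26 and 1.11, with adjusted p between 0.104 and 0.201. Mrpl18, of the L18 family, measured 10.93 and 10.73 in neonatal cardiomyocytes, against 9.46 and 9.98 in fibroblasts. By subunit, the median was 0.54 in the large and 0.39 in the small subunit, and it was 0.93 over the 9 small-subunit proteins found only in mitochondria. Mrps22, which is 1 of these, had a difference of 0.93 ± 0.30 SE (adjusted p = 0.229).

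The 7 members with a lower mean in neonatal cardiomyocytes had overlapping arrays. Mrpl17 was the lowest at −0.80 ± 0.48 SE (adjusted p = 0.507), and Mrps14 followed at −0.22 ± 0.32 SE. Mrpl57, Mrpl20, Mrps18b and Mrps12, the last of the S12 family at the decoding centre, lay between −0.09 and −0.03.

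Between adult and neonatal cardiomyocytes, no member passed the test, against a background of 1.08% of all genes called higher and 1.22% called lower, or 2.30% in either direction. At an unadjusted p under 0.05, limma placed 15 of 76 higher and 0 lower, against 11.1% and 11.7% of all genes. The 15 became 7 and 9 without adult replicate 1 and 2, with 7.46% and 8.52% of all genes higher, and 8 without neonatal cardiomyocyte replicate 2, with 6.82%. The adult mean was higher in 62 of 76, against 57.4% of all genes. Adult arrays stood above both neonatal ones for 43 members, below both for 3 (Mrps22, Mrpl24 and Mrpl47), and overlapped for 30, against 33.9% above and 23.8% below over all genes. The median difference was 0.33, or 1.26-fold, against 0.09, with single genes between −0.40 and 1.48. It was 0.72 with the neonatal replicate 1 arrays grouped by title.

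Large-subunit genes headed this list. Mrpl55 had a difference of 1.48 ± 0.30 SE (2.78-fold, adjusted p = 0.0795) and Mrpl44 of 1.22 ± 0.22 SE (2.33-fold, adjusted p = 0.0659). Mrpl14, of the L14 family at the face between the subunits, measured 9.67 and 9.98 in adult cardiomyocytes, 8.63 and 8.92 in neonatal cardiomyocytes, and 8.41 and 9.01 in fibroblasts. Its adult minus neonatal difference was 1.05 ± 0.27 SE (adjusted p = 0.120), while neonatal cardiomyocytes and fibroblasts overlapped. Mrpl4, Mrpl28 and Mrpl41 had differences of 0.93, 0.90 and 0.88, with adjusted p between 0.0798 and 0.138. Some genes with a wide gap to fibroblasts had a small one between the ages. Mrps27 measured 8.17 and 7.73 in adult and 8.32 and 7.56 in neonatal cardiomyocytes, a difference of 0.01 ± 0.32 SE, and Mrpl18 also had one of 0.01 ± 0.23 SE.

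The lowest adult minus neonatal differences were in Mrpl54 (−0.40 ± 0.55 SE), Mrps6 (−0.35 ± 0.34 SE), Mrps22 (−0.32 ± 0.30 SE), Mrps10 (−0.29 ± 0.49 SE), Mrpl27 (−0.24 ± 0.28 SE) and Mrpl24 (−0.16 ± 0.16 SE), with adjusted p of 0.551 or more. Mrps6 and Mrps10 belong to the S6 and S10 families of the small subunit, and Mrpl27 to the L27 family near the peptidyl transferase centre. Each of these differences was about as large as its error or smaller. The 3 comparisons share arrays, so a low or high fibroblast or neonatal array enters more than one of them.

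Markers of dividing cells and of endothelium also differed between some of the groups. The median of 9 proliferation markers was 4.91 and 5.93 in adult cardiomyocytes, 10.44 and 9.79 in neonatal cardiomyocytes, and 9.74 and 10.63 in fibroblasts. Endothelial markers (8 genes) had medians of 8.42 and 9.62, 8.95 and 8.15, and 6.42 and 7.30 on the same arrays. Proliferation medians were thus lower in adult cardiomyocytes than in both neonatal groups, which overlapped. Endothelial medians were lower in fibroblasts than in both cardiomyocyte groups, which overlapped. Smooth muscle and pericyte markers (7 genes) had medians of 8.05 and 9.37, 8.83 and 8.06, and 6.60 and 8.87, which overlapped in every comparison. The part of these cells in the differences above was not tested.

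The rest of the mitochondrial translation machinery was examined gene by gene, in lists of 4 to 23 measured genes. The counts of genes that rose between adult cardiomyocytes and fibroblasts are to be read against the 10.1% of all genes called higher. Of 4 ribosomal proteins with other symbols, 2 rose between adult cardiomyocytes and fibroblasts. They were Dap3, a GTP-binding protein of the small subunit (1.07 ± 0.22 SE, adjusted p = 0.0289), and Ptcd3, another pentatricopeptide repeat protein (1.91 ± 0.24 SE, adjusted p = 0.0108). Of 11 translation factors 4 rose: the elongation factors Tufm (1.76 ± 0.24 SE) and Gfm1 (2.01 ± 0.24 SE), the recycling factor Gfm2 (1.78 ± 0.25 SE) and Mtres1 (1.54 ± 0.29 SE), with adjusted p between 0.00978 and 0.0239. Tufm, which delivers aminoacyl-tRNA to the ribosome, measured 10.5 and 10.6 in adult cardiomyocytes, 10.2 and 9.76 in neonatal cardiomyocytes, and 8.65 and 8.97 in fibroblasts. A lower mean in adult cardiomyocytes than in fibroblasts was found for 2 of the 11. The lowest difference was in Guf1, a relative of elongation factors that promotes back-translocation (−0.52 ± 0.25 SE, adjusted p = 0.196).

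Of 23 genes for ribosome assembly and ribosomal RNA modification, 7 rose between adult cardiomyocytes and fibroblasts (30.4%, against 10.1% of all genes called higher) and 0 fell: the RNA methyltransferases Nsun4, Mrm1 and Mrm3, the GTPases Mtg1 and Mtg2, and Fastkd2 and Mettl17. Their differences lay between 1.11 and 1.56, and 4 of the 23 had a lower mean. Of 19 genes that charge mitochondrial tRNAs, 5 rose (26.3%), all by more than 1 unit: Cars2, Fars2, Lars2, and Qrsl1 and Gatb of the enzyme that makes glutaminyl-tRNA. Lars2 rose by 1.74 ± 0.23 SE (adjusted p = 0.0120). Among 11 genes of mitochondrial transcription and DNA upkeep, 5 rose (45.5%). They were Polrmt, the RNA polymerase (1.60 ± 0.23 SE, adjusted p = 0.0141), Tfb2m (1.33), Tefm (1.28), Twnk (0.96) and the RNA-stabilising Lrpprc (1.96 ± 0.33 SE, adjusted p = 0.0188). Tfam, which packs mitochondrial DNA and helps start its transcription, had 0.71 ± 0.20 SE (adjusted p = 0.0660) and did not pass. In the other direction, Mterf1a had −0.98 ± 0.28 SE (adjusted p = 0.0648) and Slirp, the partner of Lrpprc, −0.26 ± 0.19 SE (adjusted p = 0.371), both with adult arrays below both fibroblast arrays. Of 11 genes tied to the mitochondrial ribosome or to assembly of the respiratory chain, 4 rose (Cox10, Cox11, Uqcc1 and Letm1), which is 36.4%.

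In the other comparisons, 1 gene of these lists passed, against 0.676% of all genes called higher in neonatal cardiomyocytes against fibroblasts and 1.08% in adult against neonatal cardiomyocytes. Uqcc1, an assembly factor of complex III tied to cytochrome b synthesis, measured 10.2 and 9.97 in adult cardiomyocytes, 9.02 and 8.92 in neonatal cardiomyocytes, and 7.24 and 7.48 in fibroblasts. It rose by 1.61 ± 0.19 SE in neonatal cardiomyocytes against fibroblasts (adjusted p = 0.0459). Between adult and neonatal cardiomyocytes none of the lists' genes passed.

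The mitochondrial ribosome genes lay between 2 other sets of genes in the size and direction of their differences; both sets were picked by symbol after values were seen and serve as a description. The medians of 33 complex I subunits, the respiratory chain enzyme that feeds electrons from NADH, were 13.18 and 12.99 in adult cardiomyocytes, 12.64 and 12.27 in neonatal cardiomyocytes, and 10.87 and 11.33 in fibroblasts. Their median differences were 0.61 for adult against neonatal cardiomyocytes, 1.29 for neonatal cardiomyocytes against fibroblasts and 1.84 for adult cardiomyocytes against fibroblasts. In the last, 31 of 33 rose, against 10.1% of all genes. The 43 cytosolic ribosomal protein genes were lowest in adult cardiomyocytes. They had medians of 12.34 and 12.52 in adult cardiomyocytes, 13.03 and 13.24 in neonatal cardiomyocytes, and 13.52 and 13.55 in fibroblasts. Their median differences were −0.64, −0.28 and −0.93 for these comparisons as listed. Between adult cardiomyocytes and fibroblasts 27 of 43 fell, against 11.0% of all genes. The 2 kinds of ribosome thus had medians of opposite sign in each comparison, and the difference between them was not tested.

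**Figure D5:**
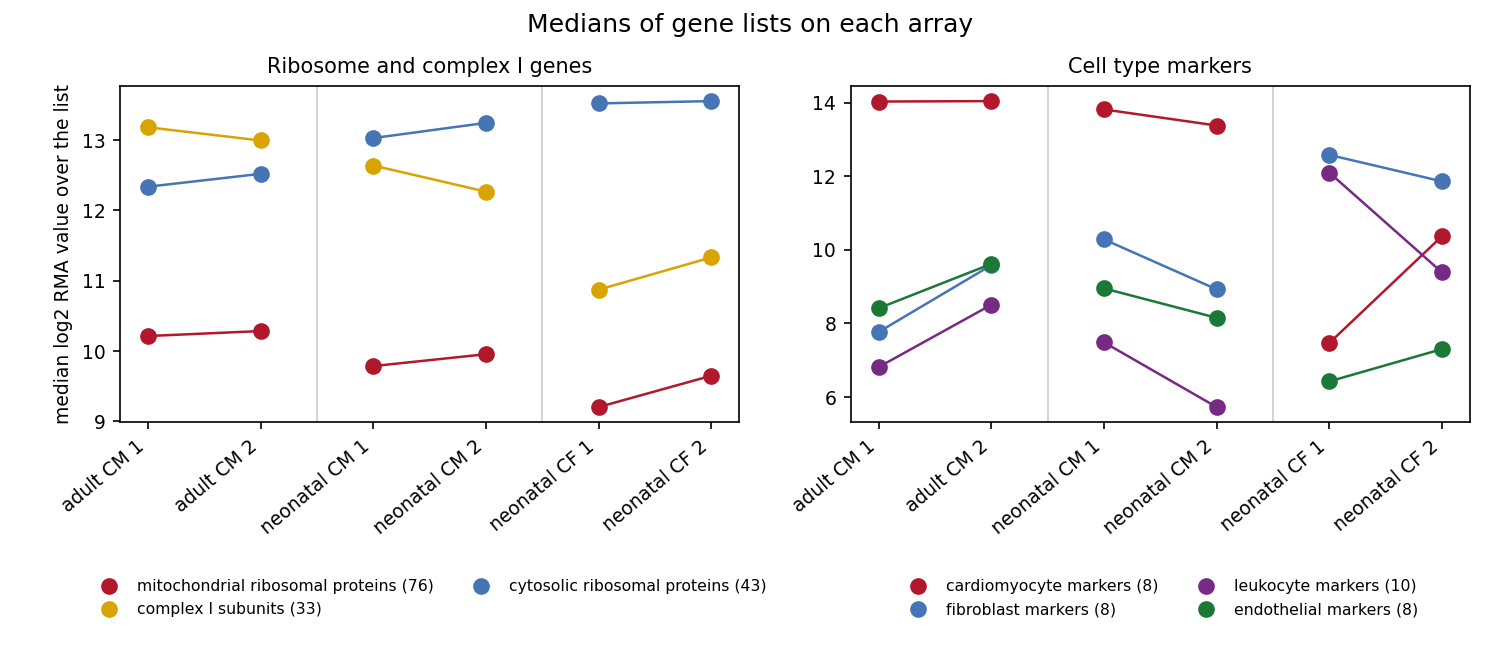
Points give the median log2 RMA value of each gene list on each array (CM, cardiomyocytes; CF, cardiac fibroblasts), with lines joining the 2 arrays of a group; the left panel holds mitochondrial ribosomal, complex I and cytosolic ribosomal genes and the right panel markers of 4 cell types. Mitochondrial ribosomal medians step down from 10.21 and 10.29 in adult CM to 9.20 and 9.65 in neonatal CF while cytosolic ones step up, and fibroblast replicate 2 stands nearer to the cardiomyocytes than replicate 1 in cardiomyocyte markers.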

How the data were processed

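The deposited values are log2 expression values per probe set, from RMA (background correction, quantile normalization and a summary over probes) per the submitters' processing notes, with no version given in the sources used here. Of 45101 probe sets (64 controls), GEO's platform annotation named 34945 to 1 gene. One linear model with a mean per group was fitted to the 6 arrays (limma 3.58.1, R 4.3.3, lmFit and eBayes), tested two-sided with Benjamini-Hochberg adjustment over all 18193 genes and a threshold of 0.05; the script was tested on simulated data. An exact permutation test of 2 arrays against 2 cannot go below p = 0.333, so none is given. There are no detection calls, and precision is limited by the number of arrays. The file held 0 columns of other samples.

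The members and lists were chosen with earlier results of these data known. Named members are, per comparison, up to 10 called ones by adjusted p and the 6 highest and 6 lowest differences, besides the cardiomyopathy genes, the S18 paralogs, the stalk genes and Mrps36. In the lists, up to 6 called genes each, Tufm, Tfam, Polrmt, Lars2, Dap3 and Lrpprc are named. All 33 called members are listed. Mrpl46, Mrps11, Mrpl43, Mrpl47, Mrpl52, Guf1, Mterf1a, Slirp, the seventh assembly gene and members named for an altered call were named after their values were seen.

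Groups share replicate numbers. Deviations of same-numbered arrays from their group means correlated at 0.27 (adult and neonatal cardiomyocytes), 0.21 (adult cardiomyocytes and fibroblasts) and 0.18 (neonatal cardiomyocytes and fibroblasts) across 18193 genes; no label says what a number marks. The block with these numbers is an alternative, as are other probe set rules, a filter on dim genes, quantile normalization, median centring, a variance trend, fits of 2 groups, grouping by title and leaving out arrays. Promoter sequences are RefSeq's on GRCm38.p6; other coordinates are not given, since the files name no build.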

Additional observations from a re-analysis of the deposited data

How the results depend on the processing

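For adult cardiomyocytes against fibroblasts, leaving out 1 array gave between 0 and 27 called members, medians between 0.58 and 1.07 and between 62 and 73 members with arrays apart in either direction (81.6% to 96.1%, against 68.0% to 84.7% of all genes). Of all genes, 0% to 21.0% were called. For neonatal cardiomyocytes against fibroblasts, medians were 0.30 to 0.72. Members with arrays apart numbered 52 to 68 (68.4% to 89.5%, against 45.4% to 75.6% of all genes). For adult against neonatal cardiomyocytes, medians were 0.30 to 0.35, and members with arrays apart numbered 46 to 63 (60.5% to 82.9%, against 57.7% to 82.9% of all genes). The ends of the median ranges against fibroblasts came without fibroblast replicate 1 or 2, and the 0 calls of adult cardiomyocytes against fibroblasts without an adult array. A lone array was assumed to vary like the other groups.

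Grouping the neonatal replicate 1 arrays by title put cardiomyocyte marker medians of 7.47 and 13.38 together as neonatal cardiomyocytes, and 13.81 and 10.37 as fibroblasts. The markers ran with the source names. Grouped by title, the members' medians were 0.72 for adult against neonatal cardiomyocytes and 0.48 for adult cardiomyocytes against fibroblasts, with 0 called in the latter. For neonatal cardiomyocytes against fibroblasts the median was −0.21, with 1 member whose arrays stood apart. With both arrays left out, the medians against fibroblasts were 0.29 for neonatal and 0.58 for adult cardiomyocytes, with 0 called for adult cardiomyocytes against fibroblasts. Mrpl51 was the 1 member called between adult and neonatal cardiomyocytes with the mean of all probe sets or with each probe set as a feature. Of all features, 1.95% and 1.47% were called in these settings. Mrpl42 was the 1 called between neonatal cardiomyocytes and fibroblasts among genes above the median level, where 4.22% of genes were called.

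With the replicate number as a block, 0, 0 and 37 members were called for adult against neonatal cardiomyocytes, neonatal cardiomyocytes against fibroblasts and adult cardiomyocytes against fibroblasts. Of all genes, 3.34%, 0% and 26.4% were called in the same order, the last against 21.0% without the block. In the last comparison 31 of the 33 calls remained, without Mrpl3 and Mrps30. Mrpl1, Mrpl10, Mrpl34, Mrpl38, Mrps7 and Mrps16 were added. In the last comparison the other probe set rules, filter, scalings, trend and fit of 2 groups called 27 to 36 members. Of all features, these settings called 16.4% (every probe set as a feature) to 36.7% (only genes above the median level, with 32 members called). Similar counts of members thus stood against unlike backgrounds. Quantile normalization gave medians of 0.44, 0.56 and 0.98 in the same order, and median centring 0.42, 0.57 and 0.98. Centring also moved the median of all genes up by 0.15 for adult cardiomyocytes against fibroblasts, so that the members' 0.98 stands against 0.24. Between adult and neonatal cardiomyocytes, the higher share of all called genes was 46.9% as deposited and 56.9% after quantile normalization. Outside the grouping by title, the sign changed under some setting for 7 of 20, 6 of 19 and 7 of 24 named members, none of them called. The cause was not tested.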
